A study of Xenopus laevis with 12 samples.

Results

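The comparison described here is that of whole Xenopus laevis embryos injected with the mixture Fam46a-MO2 plus Fam46a-MO3 (MO2+MO3) against embryos injected with the control oligonucleotide CoMO, both collected at stage 8, the blastula. It comprised 4 of the 12 arrays of the series, 2 biological replicates in each group, and covered 32539 probe sets after 96 control probe sets were left out. The arrays were chosen by their labels. Every embryo was made by in vitro fertilization and raised at 22 °C. All blastomeres received oligonucleotide at the animal pole of the 4-cell embryo, 10 ng per cell for CoMO and 7 ng of each of MO2 and MO3 per cell. The other arrays, used below for comparison, hold stage 8 embryos given Fam46a-MO1 at 10 ng per cell, and the same 3 injections collected at stage 10.5, the early gastrula. The control thus shares the injection but received a lower total mass of oligonucleotide per cell than MO2+MO3, 10 ng against 7 ng of each of 2 oligonucleotides. The labels do not say how many embryos were pooled for an array, or which step of gene expression each oligonucleotide blocks.

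Morpholinos are synthetic antisense oligonucleotides that bind an RNA and block its translation or its splicing. Fam46a, now named tent5a, belongs to a family of non-canonical poly(A) polymerases, enzymes that add adenosines to the 3′ ends of RNA. Until the mid-blastula transition the frog embryo lives largely on RNA stored in the egg, whose use is controlled through the length of its poly(A) tail. Stage 8 falls around that transition, when the embryo's own genes are first transcribed broadly, and by stage 10.5 germ layers are being specified. An array signal at stage 8 therefore reports mostly maternal RNA with the first zygotic RNA added to it. The RNA was labelled by 3′ in vitro transcription, and tail lengths were not measured. Whether tail length affected the signal was not tested.

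The deposited numbers are log2 values centred on 0 for each probe set within each stage, so they give differences between arrays of a stage and not levels. Probe sets annotated to 1 gene made up 15495 of the 32539 tested, and 16765 had no gene. In many places the frog genome holds a gene in an L and an S copy, which are similar in sequence, and signal of the copies may be shared. The array medians lay between -0.0103 and 0.0121. Levels were recovered as ranges from the rounding of the numbers. By these, 65 of 72 probe sets of genes of differentiated tissues lay below a level of 4, the ceiling of the negative controls, while 53 of 58 probe sets of genes known in the egg and blastula lay at or above it. Arrays with the same replicate number within a stage shared most of their deviation, with correlations of 0.836 to 0.864 at stage 8. The standard deviation over probe sets of the difference between replicates was 0.491 for CoMO and 0.5 for MO2+MO3. The difference between MO2+MO3 and CoMO within a replicate number had a standard deviation of 0.219 in the first pair and 0.212 in the second.

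The RNAs of the targeted gene were examined first. Both probe sets of tent5a.L had a lowest array below a level of 4. In one, the values were 0.21 and -0.02 in CoMO and 0.02 and -0.10 in MO2+MO3, a difference of -0.13 (adjusted p = 0.88 in limma with the replicate number as a block). In the other they were 0.38 and -0.15 in CoMO and 0.73 and -0.30 in MO2+MO3, a difference of 0.10 (adjusted p = 0.90, limma with the block). Neither difference passed the test, and the groups overlapped in both. A morpholino can act without lowering the amount of the RNA it binds, so these values do not check the depletion. The related tent5b.S gave differences of -0.22 and -0.15 in its 2 probe sets (adjusted p = 0.55 and 0.74, limma with the block).

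With the replicate number as a block, 40 probe sets gave a lower signal in MO2+MO3 than in control embryos of stage 8, and without it 0 passed. Of the 40, 37 were called lower again at stage 10.5, as were 7.77% of all probe sets. The blocked fit estimates the spread over both stages together, so the calls of the 2 stages are not independent. Among the probe sets that passed and have a named gene, the largest decreases included chchd5.L, a mitochondrial protein, nmd3.L, a nuclear export adaptor of the large ribosomal subunit, and gins4.L, a subunit of the replicative helicase. Differences of at least 1 on the log2 scale (2-fold) were found in 35 probe sets, 28 lower and 7 higher. All 35 had the same sign in both replicate pairs, which the choice by the mean of those pairs largely fixes. The highest mean, 2.86 in txn2.L, a mitochondrial thioredoxin gene named after its values were seen, came from 1 control array. It read 0.18 and -4.99 in CoMO, -0.20 and -0.18 in MO1 and 0.58 and 0.32 in MO2+MO3 (adjusted p = 0.37, limma with the block). In limma on the 12 arrays without a block, 0 probe sets passed an adjusted p of 0.05 (0%), 763 had an unadjusted p under 0.05, and the lowest adjusted p was 0.16, shared by 5 probe sets. With the block, 46 probe sets passed (0.141% of those tested), 40 lower (0.123%) and 6 higher (0.0184%). The fit without a block was the planned test, and the block was an alternative to it. The calls given below are those of the blocked fit, and the labels do not say what replicates of one number share. The pairing was taken from the values of these same arrays.

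Over all probe sets the 2 pairs resembled each other weakly. The correlation of the first pair's differences with the second's was 0.271 (Spearman 0.205) across probe sets, which are not independent replicates. The differences were lower in both pairs in 26.5% of probe sets and higher in both in 30%. Sizes of at least 0.5 in both pairs were reached by 139 probe sets lower (0.427%) and 39 higher (0.12%), while 10 had such sizes in opposite directions. Sizes of at least 1 in both pairs were reached by 13 lower (0.04%) and 3 higher (0.00922%). Larger differences at stage 8 were thus mostly decreases, as the plot of paired differences shows.

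**Figure D1:**
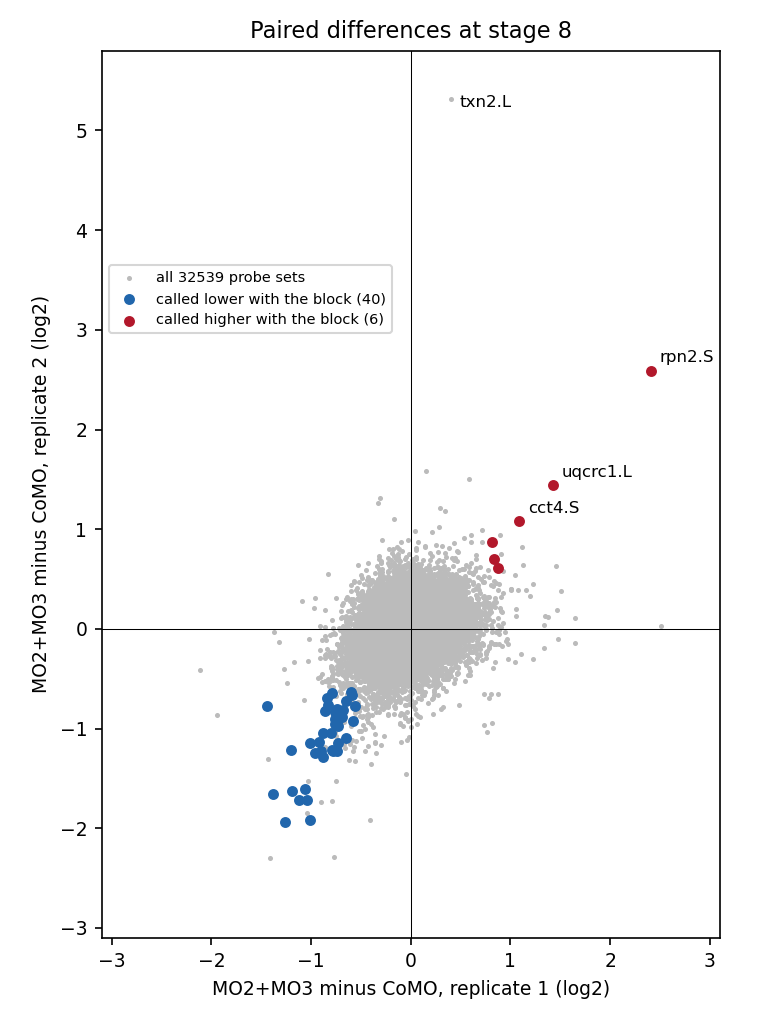
Each point is a probe set, placed by its log2 difference between MO2+MO3 and CoMO at stage 8 in replicate 1 (horizontal axis) and in replicate 2 (vertical axis). The 40 probe sets called lower with the replicate block are blue, the 6 called higher are red, and the remaining tested probe sets are grey; txn2.L, at the top, rests on 1 control array, and rpn2.S is the next highest mean.

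The 40 lower calls held 22 probe sets with 1 gene, from 21 genes, and 18 with none. Their decreases ranged from 0.616 to 1.6 on the log2 scale. In 38 of them both MO2+MO3 arrays lay below both CoMO arrays, as in 12% of all probe sets, and in 32 both also lay below the MO1 arrays, as in 5.69% of all. The calls were made from these same MO2+MO3 and CoMO arrays, which largely fixes the first of these counts and raises the second. The lowest array was shown to be at or above a level of 4 in 15 of the 40 and below it in 3, which were wnt8a.L and 2 probe sets without a gene.

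Among genes of ribosome assembly, nmd3.L was lower in 2 of its 3 probe sets. The first read 0.41 and 0.42 in the CoMO arrays, -0.00 and 0.00 in the MO1 arrays and -0.78 and -1.21 in the MO2+MO3 arrays. Both MO2+MO3 arrays stood below all others, and the decrease from CoMO was -1.41 (SE 0.12, adjusted p = 0.012, limma with the block; 0.29 without). The second probe set fell by 1.38 (adjusted p = 0.022). The third differed by -0.09, but its level of 2.0 to 4.0 did not exceed the ceiling of the negative controls. zcchc9.L, a zinc knuckle protein, read 0.01 and 0.37 in CoMO, -0.01 and 0.47 in MO1 and -0.87 and -0.92 in MO2+MO3. Here the MO1 arrays lay near the controls and the decrease in MO2+MO3 was -1.09 (SE 0.12, adjusted p = 0.023, limma with the block; 1 without). eif3j.S, a subunit of a translation initiation factor, was named after its values were seen, and its difference was -0.75 (adjusted p = 0.026, limma with the block). Of the ribosome biogenesis list, 150 probe sets of 92 genes, 3 fell and 0 rose, while 0.123% and 0.0184% of all probe sets did. Of the 3, 2 were probe sets of nmd3.L. The list's median difference was -0.0169, against 0.0107 over all probe sets. This list and those below were chosen with earlier results of these data known, so the choice can raise their counts of calls.

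gins4.L represented DNA replication. It read 0.39 and 0.31 in CoMO, -0.02 and 0.02 in MO1 and -0.80 and -0.91 in MO2+MO3. The replicates of each injection were close together and the 3 injections did not overlap. The decrease of -1.21 (SE 0.08) had an adjusted p of 0.005 in limma with the block and of 0.16 without it. It was the only one of 93 probe sets of the DNA replication list to pass, where 0.141% of all probe sets did. The list's median difference was 0.00748. esco2.S, which encodes an acetyltransferase of cohesin, differed by -0.83 (adjusted p = 0.023, limma with the block; 1 without), and its arrays differed about as much between replicate numbers as between these injections. It read 0.76 and -0.00 in CoMO and 0.00 and -0.90 in MO2+MO3.

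Mitochondrial genes fell and rose. cyc1.S, cytochrome c1 of complex III, read 0.42 and 0.39 in CoMO, 0.08 and -0.08 in MO1 and -0.50 and -0.75 in MO2+MO3. Its decrease was -1.03 (SE 0.10, adjusted p = 0.015, limma with the block; 0.16 without), and the 2 probe sets of cyc1.L differed by only -0.14 and -0.12. chchd5.L read 0.04 and 0.67 in CoMO, -0.04 and 0.70 in MO1 and -1.08 and -1.05 in MO2+MO3. The MO1 arrays followed the controls number by number, and MO2+MO3 was lower by -1.42 (adjusted p = 0.034, limma with the block). The gene's other probe set differed by 0.21, at a level of 1.2 to 2.1, below the ceiling of the negative controls. atp5mc1.L, a c subunit of ATP synthase, fell by 0.94 (adjusted p = 0.033, limma with the block), and its S copy differed by -0.02. mcub.L, an inhibitory subunit of the mitochondrial calcium uniporter, fell by 0.84 (adjusted p = 0.026). apoo.L of the cristae-organizing complex differed by -0.75 and gfm1.L, a mitochondrial elongation factor, by -0.66. The last 2 were named after their values were seen. In the other direction, uqcrc1.L, a core subunit of complex III, rose, as described below. Of 103 probe sets of the respiratory chain list, 3 fell, chchd5.L among them, and 1 rose, while 0.123% and 0.0184% of all probe sets did. Here too the choice of the list can raise the counts. The list's median was 0.0368.

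Of 76 probe sets of the proteasome list, 3 fell and 1 rose (pomp.S), while 0.123% and 0.0184% of all probe sets did. The list's median was 0.0316, with 34.2% of it higher and 23.7% lower in both pairs. psmd3.S, of the regulatory particle, read 0.05 and 0.08 in CoMO, -0.04 and 0.04 in MO1 and -0.71 and -0.74 in MO2+MO3. Its MO2+MO3 arrays stood apart from the 4 others and the decrease was -0.79 (SE 0.08, adjusted p = 0.019, limma with the block; 0.16 without). Its 2 other probe sets differed by 0.02 and 0.03. psmb4.L, of the core particle, fell by 0.77 (adjusted p = 0.023) and psmd9.L, an assembly chaperone of the regulatory particle, by 1.0 (adjusted p = 0.026, both limma with the block). In psmd9.L the MO1 arrays were low as well, with a difference from CoMO of -0.66.

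The remaining lower calls with a gene named by rule were of several kinds. sec22a.S, related to vesicle SNARE proteins between endoplasmic reticulum and Golgi, and fut8.L, the core fucosyltransferase of N-glycans, both fell by 0.85 (adjusted p = 0.033 and 0.028, limma with the block). In both, the MO1 difference from CoMO was 0.03. XB5920187.S fell by 1.11 (adjusted p = 0.046) and the F-box gene fbx28 by 0.99 (adjusted p = 0.040). poc1b.L, a centriole protein, was named after its values were seen and differed by -0.77 (adjusted p = 0.023, limma with the block). It read 0.83 and 0.00 in CoMO and -0.00 and -0.69 in MO2+MO3, so its replicates lay about as far apart as these groups. The plot of the arrays shows 20 of the probe sets that passed and have a gene, the 15 with the largest decreases and the 5 that rose.

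**Figure D2:**
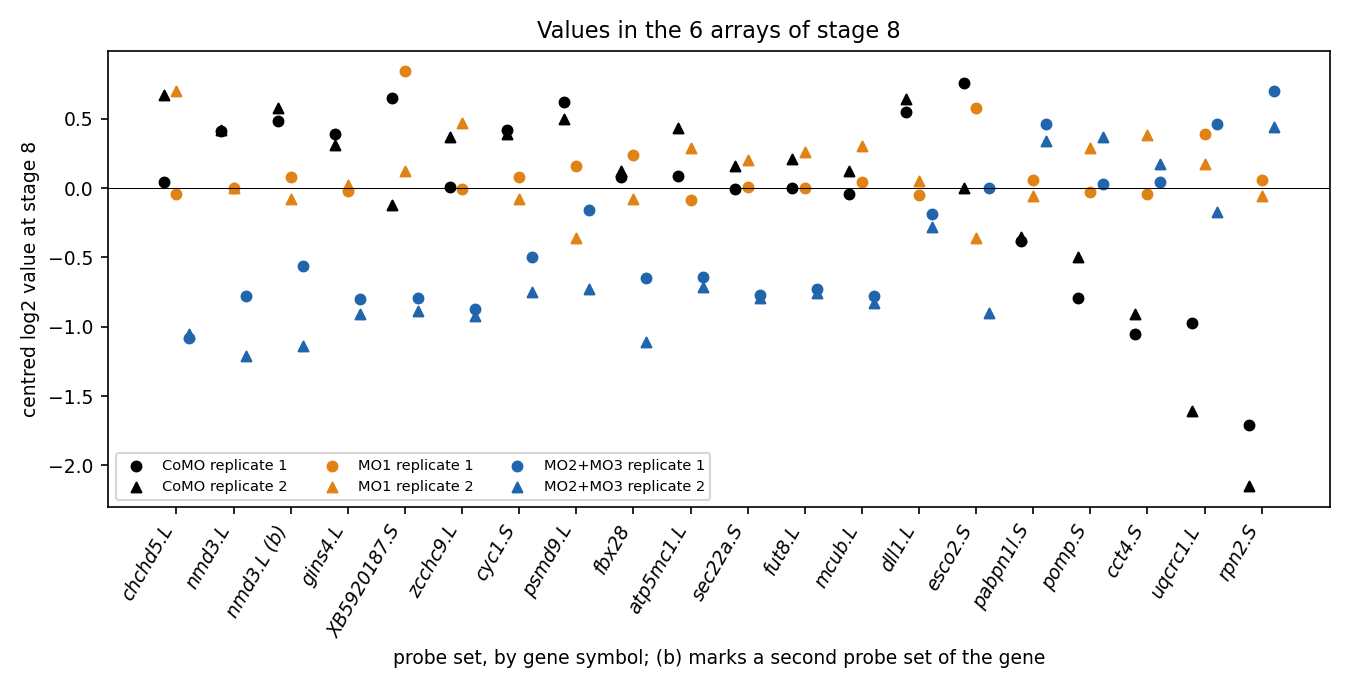
Centred log2 values in the 6 arrays of stage 8 for probe sets that passed with the block and have a gene, the 15 with the largest decreases and the 5 that rose, ordered by the difference between MO2+MO3 and CoMO. Colour gives the injection and shape the replicate number; MO1 lies near the control in many of the decreases and above both control arrays in the increases, and in esco2.S the replicates of a group lie about as far apart as the groups.

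The lower calls also held 2 genes of signalling ligands. dll1.L, which encodes a Notch ligand, read 0.55 and 0.64 in CoMO, -0.05 and 0.05 in MO1 and -0.19 and -0.28 in MO2+MO3. The MO1 and MO2+MO3 arrays all lay below both CoMO arrays, which the 2 comparisons share. The decrease in MO2+MO3 was -0.83 (SE 0.11, adjusted p = 0.033, limma with the block; 0.47 without). The gene's other probe set differed by -0.42. wnt8a.L, which encodes a Wnt ligand expressed as zygotic transcription begins, read 0.20 and 0.62 in CoMO, -0.36 and 0.10 in MO1 and -0.45 and -0.10 in MO2+MO3. It fell by 0.68 (SE 0.08, adjusted p = 0.026, limma with the block), and its MO1 difference was -0.54. Its level of 2.0 to 4.0 did not exceed the ceiling of the negative controls, so this difference says little of the gene.

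All 6 higher calls followed another pattern, in which CoMO was the lowest group. No array holds uninjected embryos, so a gene said to have risen was higher than in CoMO. Whether CoMO itself lowered these signals was not tested. In each of them both CoMO arrays lay below all 4 MO1 and MO2+MO3 arrays of stage 8, as in 5.75% of all probe sets. The calls were made from these same CoMO arrays, and that choice favours a low CoMO. rpn2.S, a subunit of the oligosaccharyltransferase that attaches N-glycans, read -1.71 and -2.15 in CoMO, 0.06 and -0.06 in MO1 and 0.70 and 0.44 in MO2+MO3. The difference between MO2+MO3 and CoMO was 2.50 (SE 0.11), the largest among the 46 calls, with an adjusted p of 0.0003 in limma with the block and 0.16 without. Its MO1 difference was 1.93. uqcrc1.L read -0.97 and -1.61 in CoMO, 0.39 and 0.17 in MO1 and 0.46 and -0.17 in MO2+MO3. It rose by 1.44 (SE 0.13, adjusted p = 0.013, limma with the block; 1 without), beside 1.57 in MO1.

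The chaperonin subunit gene cct4.S read -1.05 and -0.91 in CoMO, -0.04 and 0.38 in MO1 and 0.04 and 0.17 in MO2+MO3. The MO1 and MO2+MO3 arrays were interleaved, and the rise was 1.09 (SE 0.12, adjusted p = 0.023, limma with the block), beside 1.15 in MO1. The L copy, cct4.L, differed by 0.53 without passing the test (adjusted p = 0.20). pomp.S, the proteasome maturation factor, rose by 0.85 (adjusted p = 0.013), beside 0.78 in MO1, while its other probe set differed by -0.11. pabpn1l.S encodes an embryonic nuclear-type poly(A)-binding protein. It read -0.38 and -0.35 in CoMO, 0.06 and -0.06 in MO1 and 0.46 and 0.34 in MO2+MO3, a rise of 0.77 (SE 0.09, adjusted p = 0.028, limma with the block). Its other probe set differed by 0.12 and both probe sets of the L copy by -0.08. The MO1 and MO2+MO3 differences share the CoMO arrays.

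Probe sets of one gene often differed. Of the lower calls with a gene, 8 had another probe set of the same copy on the array, counting each nmd3.L probe set. The difference of at least 1 of these others had the opposite sign in chchd5.L, psmd3.S and poc1b.L. The other probe set of chchd5.L and the third of nmd3.L did not exceed the ceiling of the negative controls, so their small differences say little of the gene. Where the other copy of a gene was on the array (cyc1, psmd9, atp5mc1, sec22a and fut8), its differences lay between -0.42 and -0.02. These genes were taken because 1 copy passed, so a smaller decrease in the other copy is largely fixed by that choice.

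The stage 8 calls were then followed to stage 10.5, whose arrays hold other embryos and share no array with stage 8. All 40 probe sets called lower at stage 8 had a negative difference there, 38 of them in both pairs, as did 33.6% of all probe sets. With the block, 37 of the 40 were called lower at stage 10.5, or 92.5%, against 7.77% of all probe sets, and 0 were called higher. The share was 66.7% (24 of 36) without MO2+MO3 replicate 1 and 77.8% (35 of 45) among probe sets above the negative controls. It was 1 of 2 when MO2+MO3 replicate 2 was left out and 0 of 1 when CoMO replicate 1 was, and 0 lower calls remained in the absence of CoMO replicate 2. Without the block 14 of the 40 passed (0.344% of all). Their median difference was -0.897 at stage 8 and -0.708 at stage 10.5. The blocked fit estimates the spread of a probe set over both stages together, so a low spread enters the calls of both stages. The signs do not depend on it.

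Sets taken by size alone from the 4 arrays, with no test, give the same comparison without that spread. Of the 139 probe sets lower by at least 0.5 in both pairs, 119 (85.6%) were lower in both pairs at stage 10.5, 67 of them by at least 0.5. Of the 13 lower by at least 1, all 13 were lower in both pairs at stage 10.5, and 7 by at least 1. Of the 39 higher by at least 0.5, 23 (59%) were higher in both pairs at stage 10.5, where 35% of all probe sets were. Over all probe sets the differences of the 2 stages correlated at 0.275 (Spearman 0.247), across probe sets, and both stages share the oligonucleotides.

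Single genes differed in how closely the sizes repeated. chchd5.L differed by -1.42 at stage 8 and by -0.79 at stage 10.5 (adjusted p = 0.020), and cct4.S by 1.09 and 0.42 (adjusted p = 0.047, both limma with the block). gins4.L differed by -1.21 at stage 8 and by -1.29 at stage 10.5 (adjusted p = 0.00017, limma with the block; 0.010 without). At stage 10.5 its arrays read 0.07 and 0.22 in CoMO, -0.07 and 0.09 in MO1 and -1.3 and -1.0 in MO2+MO3. The first probe set of nmd3.L differed by -1.28 there and the second by -1.25 (adjusted p = 0.00048 and 0.0011, limma with the block). rpn2.S, the largest rise, repeated with 2.49 (adjusted p = 6.5e-05), and uqcrc1.L with 1.39 (adjusted p = 0.00045, both limma with the block). mcub.L differed more at stage 10.5, by -1.31 against -0.84.

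Of the 6 probe sets called higher, all 6 were higher in both pairs at stage 10.5 and 4 were called higher there (66.7%, against 9.02% of all probe sets). Those not called were pomp.S, with 0.20 (adjusted p = 0.11, limma with the block), and the probe set without a gene, with 0.30 (adjusted p = 0.050 as rounded). The lower calls that did not pass at stage 10.5 were dll1.L with -0.08 (adjusted p = 0.68), wnt8a.L with -0.04 (adjusted p = 0.82) and gfm1.L with -0.18 (adjusted p = 0.20, all limma with the block). For dll1.L, wnt8a.L and pomp.S the difference between stages itself passed the blocked test, at -0.75, -0.65 and 0.65 (adjusted p = 0.034, 0.024 and 0.018).

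**Figure D3:**
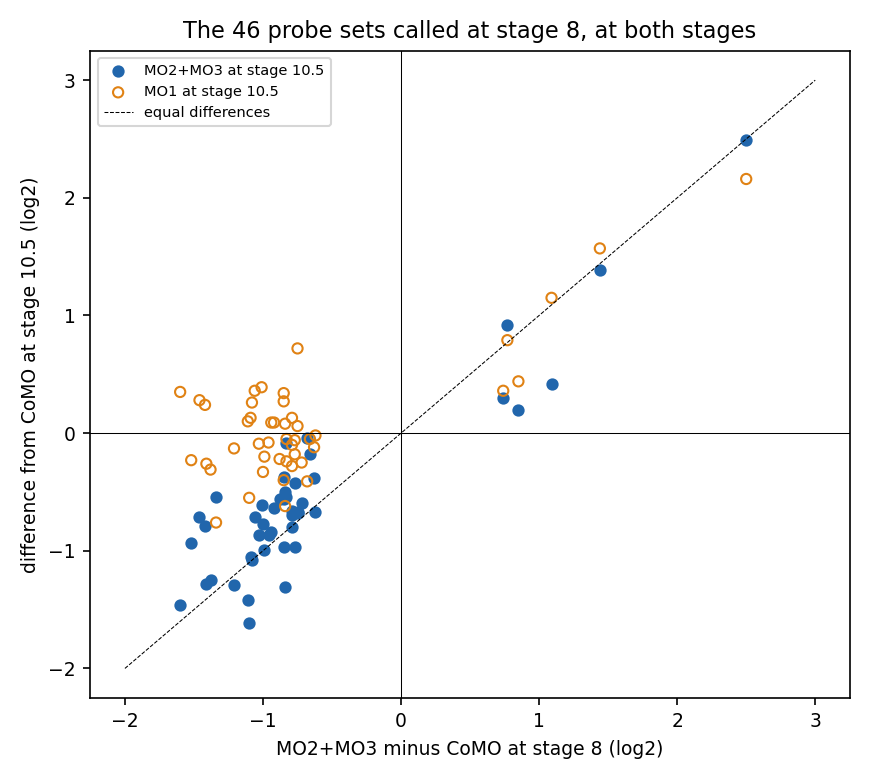
Each of the 46 probe sets called at stage 8 is placed by its log2 difference between MO2+MO3 and CoMO at stage 8 (horizontal axis) and by a difference from CoMO at stage 10.5 (vertical axis), blue for MO2+MO3 and open orange for MO1. Blue points of the 40 lower calls all lie below 0, while the orange points scatter around 0; all 6 higher calls are above 0 for both injections.

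The 40 probe sets called lower in MO2+MO3 differed less in MO1 by their medians, which the choice by MO2+MO3 values at stage 8 favours. In some of them, as in gins4.L, cyc1.S and dll1.L, both MO1 arrays of stage 8 also lay below both CoMO arrays. Over the 40 lower calls the median MO1 difference from CoMO was -0.104 at stage 8 and -0.0723 at stage 10.5, beside the MO2+MO3 medians given above. MO1 at stage 10.5 was called lower in 5 of the 40 (7.75% of all probe sets) and higher in 2 (8.48%). A direct contrast of the 2 injections at stage 10.5 called 31 of the 40 lower in MO2+MO3 than in MO1, against 4.36% of all probe sets, and 1 higher, against 5.38%. All 6 higher calls were also called higher in MO1 at stage 10.5, where their median was 0.969, beside 0.669 in MO2+MO3.

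At stage 8 the direct contrast of MO2+MO3 with MO1 called 2 probe sets without the block (0.00615%) and 124 with it (0.381%), 63 higher (0.194%) and 61 lower (0.187%). Of the 40 lower calls against CoMO, 29 were also called lower than MO1 here, through the same MO2+MO3 arrays, and of the 6 higher calls 0 differed from MO1 by this test. The 2 were both of dbn1.S, which encodes the actin-binding protein drebrin. The first read -1.97 and -2.22 in MO1, 0.04 and -0.04 in CoMO and 0.13 and 0.07 in MO2+MO3. MO1 was the group that stood apart, and MO2+MO3 differed from CoMO by 0.10 only (contrast with MO1 2.2, adjusted p = 0.0022, limma without the block). The second gave a contrast of 2.05 (adjusted p = 0.0046), and another probe set of the gene gave 1.64, which passed with the block alone (adjusted p = 0.0059). fnta.S (1.83, 1.69 and 1.58 in its 3 probe sets), rpp25l.S (1.73) and rrs1.S (2.0) had the same arrangement, with MO1 the lowest group. In these, MO2+MO3 differed from CoMO by 0.07, 0.03, -0.03, -0.13 and 0.75. Of the 61 lower ones, those named by size were selenos.S, MGC82636, chchd5.L, caprin2.L, XB5920187.S and zcchc9.L, which lay between -2.06 and -1.12, with MO2+MO3 the lowest group.

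Some of the largest differences did not pass the test against CoMO. selenos.S encodes a selenoprotein of endoplasmic reticulum-associated degradation. It read -0.00 and 0.59 in CoMO, 0.00 and 0.99 in MO1 and -1.42 and -1.71 in MO2+MO3. Its difference of -1.86 was the lowest of all probe sets, with an adjusted p of 0.062 in limma with the block and 0.60 without, and it was -1.75 at stage 10.5 (adjusted p = 0.0040). The L copy, selenos.L, differed by -1.37 (adjusted p = 0.15), but its arrays ranged from 2.34 to -2.42 and the 2 replicate numbers were far apart. Without the block its difference turned to 0.28 when CoMO replicate 1 was left out. derl1.L, another component of that degradation pathway, differed by -0.79 (adjusted p = 0.055). MGC82636 (-1.44, adjusted p = 0.062) and caprin2.L (-1.31, adjusted p = 0.079) were likewise low in both MO2+MO3 arrays, and differed at stage 10.5 by -1.86 and -1.56 (adjusted p = 0.0011 and 0.0021, all limma with the block). On the side of increases, myd88.S (0.86, adjusted p = 0.050 as rounded and not passed), tmem111.S (0.83), upf3b.S (0.97), LOC397846 (0.92) and cebpd.L (0.79) missed the threshold.

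The lists of pathway and tissue genes were described by counts and medians. Of 148 probe sets of 75 zygotic genes of the blastula, 1 fell (wnt8a.L, at a level of 2.0 to 4.0) and 0 rose, while 0.123% and 0.0184% of all probe sets did. Of the list, 37.8% was lower in both pairs and 15.5% higher, beside 26.5% and 30% of all probe sets, and the median was -0.0493. In 58.8% of these probe sets the level at stage 8 lay below 4, against 33.7% of all. Its largest differences were those of id3, a helix-loop-helix inhibitor induced by BMP, with -1.53 in id3.L and -1.28 in id3.S (adjusted p = 0.18 and 0.21, limma with the block). id3.S read 1.12 and 0.39 in CoMO, -0.55 and -0.09 in MO1 and 0.09 and -1.14 in MO2+MO3. Both CoMO arrays were above the MO1 and MO2+MO3 arrays, but the replicates of a group differed widely.

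By the rule on size, the zygotic, mesoderm, endoderm, neural and epidermal lists gave further members beside id3, wnt8a.L and dll1.L, and none of them passed at stage 8. The lower ones were bix1.2.S (-0.91), ventx2.1.L (-0.88), dlx6.S (-0.83), irx1.S (-0.67), zic1.S (-0.67), ventx2.1.S (-0.65), foxi1.L (-0.63), foxi4.2.L (-0.50), dkk1.S (-0.46) and sox17b.1.L (-0.45). All of these except dkk1.S, which encodes a secreted Wnt inhibitor, encode transcription factors. Their adjusted p ranged from 0.11 to 0.41 in limma with the block, and their MO1 differences from -0.86 to -0.39. Without the block, foxi1.L turned to 0.17 when CoMO replicate 2 was left out and to 0.07 when MO2+MO3 replicate 1 was; with the block both stayed negative (-0.50 and -0.65). At stage 10.5, sox17b.1.L was lower by -1.13 (adjusted p = 0.0013, limma with the block), dlx6.S differed by -0.66 and dkk1.S by -0.13 without passing, and the others lay between 0.03 and 0.40 without passing. The higher ones reached 0.34 in dlx6.L, 0.33 in rax.S and 0.30 in gata4.S. Of the mesoderm (86 probe sets) and Wnt (98) lists, wnt8a.L alone fell, at a level that did not exceed the ceiling of the negative controls. Of the neural list (68 probe sets) dll1.L alone fell, while 0.123% of all probe sets did. No probe set of the endoderm (54), epidermis (65), germ plasm (32), cell cycle (108) or p53 and apoptosis (58) lists passed in either direction at stage 8. Over all probe sets 0.141% passed with the block, so 0 calls in lists of these sizes say little of their genes. The tilt of the zygotic list was not particular to it. In both pairs, 44.4% of the endoderm list was lower and 14.8% higher, and 50% and 17.2% of the p53 and apoptosis list. Of all 32539 probe sets, 763 had an unadjusted p under 0.05 in limma without the block and 3544 with it. Where nothing differs, a share of 0.05 is due under that threshold, and the first count is a smaller share.

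Of the cytosolic ribosomal protein list, more probe sets were higher than lower and none passed. Of 142 probe sets of 68 genes, 57% were higher in both pairs and 4.93% lower, beside 30% and 26.5% of all probe sets. Of the 142, 0 passed the blocked test, where 0.141% of all probe sets did. The median difference was 0.189, made up of 0.369 in the first pair and 0.0514 in the second. MO1 had a median of -0.0174 at stage 8, and MO2+MO3 one of -0.157 at stage 10.5. The size thus differed between the pairs and the sign between the stages. Among probe sets at or above a level of 4 the pattern was similar (121 probe sets, median 0.205). The mean differences ranged from -0.505, in rps23.L, to 0.54.

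Among poly(A)-related genes, the group nearest to the known activity of the family, 1 probe set passed. Of 94 probe sets of 45 genes of cytoplasmic polyadenylation and deadenylation, pabpn1l.S rose and 0 fell, with a median of -0.0154. papola.L, the canonical nuclear poly(A) polymerase, read 0.09 and 0.05 in CoMO and -0.39 and -0.55 in MO2+MO3. Its MO1 arrays read 0.09 and -0.05, and the MO2+MO3 difference of -0.54 missed the threshold (adjusted p = 0.057, limma with the block), whereas -0.53 at stage 10.5 passed (adjusted p = 0.0032). The cytoplasmic poly(A)-binding protein gene pabpc1.S differed by -0.55 (adjusted p = 0.11). Of the oligosaccharyltransferase and endoplasmic reticulum list, 90 probe sets, rpn2.S rose and 0 fell. Of the chaperonin list, 27 probe sets, cct4.S rose and 0 fell. For these 3 lists too, the shares over all probe sets were 0.0184% higher and 0.123% lower.

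**Figure D4:**
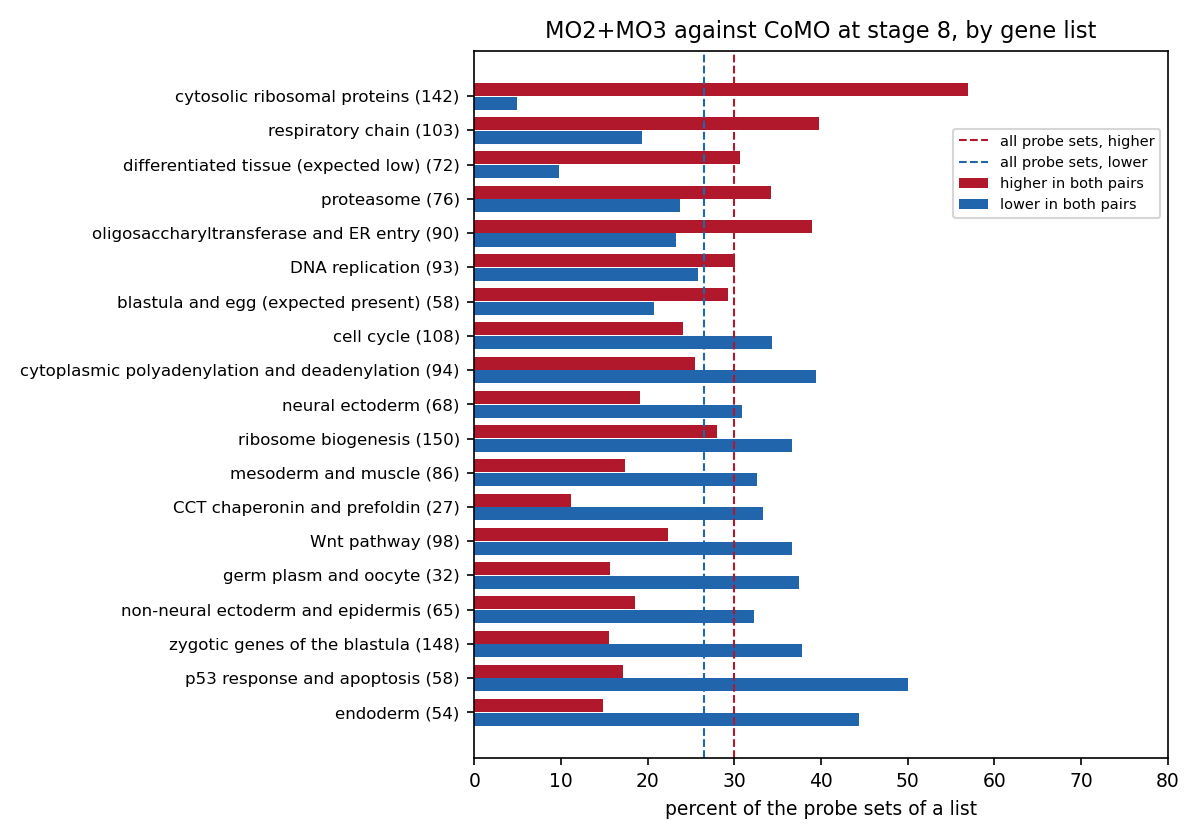
For each gene list (number of probe sets in parentheses), bars give the percent of its probe sets that were higher (red) or lower (blue) in both replicate pairs of MO2+MO3 against CoMO at stage 8; dashed lines give the same over all probe sets, 30% and 26.5%. Lists are ordered by their median difference, with the cytosolic ribosomal proteins at 57% higher at the top.

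Far fewer probe sets passed at stage 8 than at stage 10.5. At stage 10.5 the blocked fit called 5464 probe sets between MO2+MO3 and CoMO (16.8%). The contrast of the stage 8 effect with the stage 10.5 effect called 3 without the block (0.00922%) and 1250 with it (3.84%). Most of the genes named by this contrast did not pass the test at stage 8. krt12.4.L, an epidermal keratin gene, read -0.14 and -0.14 in CoMO and 0.06 and 0.04 in MO2+MO3 at stage 8, with a level below 4. At stage 10.5 it read 2.32 and 2.55 in CoMO and -0.08 and 0.08 in MO2+MO3. The controls thus stood above MO2+MO3 at stage 10.5, while the centred values do not compare levels between stages. The effects differed by 2.62 (SE 0.11, adjusted p = 0.016 without the block and 0.0002 with it, limma).

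The number of calls rested on individual arrays. With the block, 4 probe sets passed without CoMO replicate 1, 1 without CoMO replicate 2 (rpn2.S), 3 without MO2+MO3 replicate 2 and 40 without MO2+MO3 replicate 1. On the 6 arrays of stage 8 alone 1 passed with the block, so most of the 46 calls need the spread estimated over both stages.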

How the data were processed

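The deposited log2 values of 12 arrays were used. RMA is named in the submitters' processing notes, without a version. The authors' values turned out to be centred per probe set within each stage (largest absolute median of the 6 arrays 5e-07), and the base of the logarithm is not given in the sources used here. Per the labels' protocols, 100 ng of RNA was labelled by 3′ in vitro transcription. Levels were recovered as ranges from the rounding of the numbers. On simulated data 98% of levels fell inside their range. Genes came from the platform annotation, and 15384 probe sets matched the RefSeq gene table.

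limma 3.58.1 in R 4.3.3 fitted 1 coefficient per group over all 12 arrays, with eBayes and Benjamini-Hochberg adjustment over the 32539 probe sets (threshold 0.05). A second fit added a block for the replicate numbers of each stage. Same-numbered arrays deviated together (correlations 0.836 to 0.864 at stage 8, 0.821 to 0.853 at stage 10.5, -0.0164 to 0.0244 between stages), so the numbers were taken to pair arrays within a stage. Differences are group means, without a pseudocount. Nothing says that replicates came from separate clutches, and p-values measure the spread between these arrays. With 2 arrays per group, their number limits precision.

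Named genes were the tent5 probe sets, up to 15 blocked calls per direction by size, up to 10 per direction by the smaller paired difference, up to 6 per direction in the contrasts with MO1 and between stages, and up to 3 per direction in each list. Members and lists were chosen with earlier results of these data known. Alternatives covered the block, the arrays fitted, scaling, a level filter, gene means and each array left out. No sequences were used here.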

Additional observations from a re-analysis of the deposited data

Results flagged for a closer look

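The MO2+MO3 effect at stage 8 differed from that at stage 10.5 in 24 of the 140 named probe sets. This was tested as an interaction in limma with the replicate block, which called 1250 of all probe sets (3.84%). Some of the 140 were named from this same contrast, so that choice raises their share and the shares cannot be compared. Differences are the stage 8 effect minus the stage 10.5 effect, on the log2 scale. Of the 24, only krt12.4.L also passed without the block.

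Most of them had small effects at stage 8, which did not pass there. In several the level at stage 8 did not exceed 4, the ceiling of the negative controls. These were krt12.4.L, krt12.4.S, krt12.5.S, gjb2.L, slc3a1.L, msgn1.L, sertad1.L, dlx6.L and the probe set of sbk1l.L chosen by size. Their small effects at stage 8 therefore say little of these genes. The keratin genes krt12.4.L, krt12.4.S and krt12.5.S differed by 2.62, 2.12 and 2.27 (adjusted p = 0.0002, 0.0034 and 0.005), with stage 8 effects of 0.19, 0.13 and -0.04. The connexin gene gjb2.L differed by 1.87, slc3a1.L by 1.77 and the mesodermal transcription factor gene msgn1.L by 1.77 (adjusted p = 0.0072, 0.0082 and 0.041). Another probe set of gjb2.L differed by 0.63 without passing (adjusted p = 0.16, limma with the block). In the other direction, sertad1.L differed by -3.79 (adjusted p = 0.00068), with an effect of -0.20 at stage 8 and 3.60 at stage 10.5. cpeb1.L and cpeb1.S, copies of a cytoplasmic polyadenylation factor gene, differed by -2.12 and -2.14 (adjusted p = 0.00094 and 0.0084). tmem181.L differed by -2.39 and -2.57 in the 2 of its 7 probe sets chosen by size (both adjusted p = 0.0034), and the other 5 lay between -1.95 and 0.21. The replication gene cdc45.L differed by -0.89 and the DNA methyltransferase gene dnmt1.L by -1.02 (adjusted p = 0.012 and 0.0082), with stage 8 effects of 0.32 and 0.37. Of the transcription factor genes, dlx6.L differed by 0.98 and foxa1.L by 0.78 (adjusted p = 0.0091 and 0.024), with 0.34 and 0.18 at stage 8. 1 of 11 probe sets of sbk1l.L, chosen by size, differed by -2.10 (adjusted p = 0.012), and its 10 others did not pass.

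Others had their larger effect at stage 8. Some of these, such as dll1.L and LOC397846, were named by their stage 8 differences, from the same arrays. That choice favours a larger effect at stage 8. The stage 8 level of wnt8a.L, 2.0 to 4.0, did not exceed the ceiling of the negative controls. wnt8a.L differed by -0.65 (adjusted p = 0.024), with -0.68 and -0.04, and foxi1.L by -1.03 (adjusted p = 0.024), with -0.63 and 0.40. dll1.L differed by -0.75 (adjusted p = 0.034), with -0.83 at stage 8 and -0.08 at stage 10.5. pomp.S differed by 0.65 (adjusted p = 0.018), with 0.85 and 0.20. LOC397846 differed by 1.19 (adjusted p = 0.017), tmem111.S by 1.26 (adjusted p = 0.012) and upf3b.S by 0.99 (adjusted p = 0.048), with stage 8 effects of 0.92, 0.83 and 0.97 that did not pass there. The other probe sets of LOC397846 differed between stages by 0.01 and -0.18 only (adjusted p = 0.98 and 0.67, limma with the block). plk3.S differed by -0.70 (adjusted p = 0.048), with -0.46 at stage 8 and 0.24 at stage 10.5.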

How the results depend on the processing

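The count of calls between MO2+MO3 and CoMO was 0 without the replicate block and 46 with it. The random block gave 47. With the block, the 6 arrays of stage 8 and the 4 arrays compared each gave 1. Restricting to probe sets above the negative controls gave 2, and 61 with the block. The block gave 47 after centring and 32 over gene means. Leaving out 1 array gave 0 to 40, and 39 for either MO1 array. Settings with the block after centring, over gene means, above the negative controls and without an MO1 array were chosen after seeing the data. Other settings without the block gave 0. The contrast with MO1 had 2 calls, 124 with the block and 93 with the random block. The contrast of the stages had 3, 1250 and 534. Of the 40 lower calls of stage 8, 37 were also called lower at stage 10.5, against 7.77% of all probe sets. Without 1 array this was 0 to 24, the latter of 36 lower calls (29 of 33 for either MO1 array), and on the 6 arrays of stage 8 with the block it was 0 because 0 lower calls were made.

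Of 2559 values for 140 named probe sets, 2429 kept direction and side of the threshold, 70 newly passed and 60 changed sign. No call could be lost, since 0 passed without the block. Of those that changed sign, LOC397846, selenos.L, foxi1.L and ccna1 had a difference of over 0.5 in size. Without the block, leaving out 1 array moved LOC397846 between -0.16 (-0.14 when MO2+MO3 replicate 1 was absent) and 2.0, selenos.L between -3.01 and 0.28, foxi1.L between -1.42 and 0.17 and ccna1 between -1.12 and 0.03. The ranges were -0.37 to 0.10 for rpp25l.S, -0.59 to 0.19 for sertad1.L, -0.42 to 0.61 for one probe set of tent5a.L, -0.30 to 0.55 for krt12.4.S, -0.05 to 0.48 for plk3.L and -0.18 to 0.28 for sbk1l.L. They were -0.11 to 0.74 for orc2.S, -0.72 to 0.50 for rpl36a.L, -0.58 to 0.05 for rplp0.S, -0.01 to 0.29 for eef1a1o.S, -0.00 to 0.16 for ddx4.L, -0.13 to 0.11 for msgn1.L, -0.05 to 0.12 for cpeb1.L, -0.05 to 0.08 for cpeb1.S, -0.02 to 0.09 and -0.03 to 0.17 for fnta.S, and -0.03 to 0.21 and -0.05 to 0.28 for tmem181.L. With the block, values that turned when CoMO replicate 1 was left out were cpeb1.S -0.01, dbn1.S -0.07, fnta.S -0.14 and -0.11, krt12.5.S 0.03, msgn1.L 0.04 and tmem181.L -0.15. Those for CoMO replicate 2 were sertad1.L 0.01 and tent5a.L 0.05. Those for MO2+MO3 replicate 1 were cpeb1.S -0.01, krt12.5.S 0.00, msgn1.L 0.13, sbk1l.L -0.07, tent5a.L 0.13 and -0.19, and tmem181.L -0.02, and those for replicate 2 were fnta.S -0.03 and sertad1.L 0.03. Over gene means sbk1l.L became -0.04, tent5a.L -0.02, tmem181.L -0.02, foxh1.L -0.06, rtn3.L -0.02, rpl36a.L 0.03 and rplp0.S 0.13. The cause was not tested. None of these probe sets is among the 46 calls. The deposited numbers bound levels loosely, which limits what can be said of dim probe sets.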
